A study of Mus musculus with 12 samples.

Results

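The 54 genes described here encode the machinery that copies DNA. They were chosen by function from a fixed list of gene symbols, which covers origin recognition and loading, the MCM helicase, the firing kinase and the CMG helicase cofactors, DNA polymerases, the sliding clamp and Okazaki fragment processing, RPA, nucleotide supply, replication-coupled chromatin assembly and G1/S control. All 54 were among the 35727 genes of the count table, and all 54 passed the filter on low counts together with 15506 genes in total.

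The cells were fibroblasts from pooled hearts of newborn C57BL/6J mice, selected for the surface protein THY1. They were infected with pMX retrovirus carrying the endothelial transcription factors *Sox17* and *Erg* (the *Sox17*-*Erg* group) or with pMX control retrovirus (the control group), grown in EGM2, an endothelial growth medium, and collected as whole cultures on Day 3, on Day 7 and after 4 weeks (Week 4 below). Each of the 6 groups had 2 libraries of stranded mRNA. The sample titles number them as replicates 1 and 2, used here, and the column names as R2 and R3. Nothing in the labels says whether these came from separate heart pools, so p-values measure only the spread between these libraries.

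Origins of replication are licensed in G1, when the origin recognition complex, CDC6 and CDT1 load the MCM helicase onto DNA, and geminin later blocks reloading. At the start of S phase, the kinase CDC7-DBF4 and the cofactors CDC45 and GINS convert MCM into the active CMG helicase, polymerases copy both strands behind it, and PCNA clamps them to the template. Many of these genes are known targets of E2F factors in cycling cells, and their mRNA falls when cells leave the cycle.

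Library totals ranged from 19011635 to 41240449 counts. *Sox17* had at most 9 counts in a control library and between 10019 and 36238 in a *Sox17*-*Erg* library, and *Erg* had at most 49 and between 389 and 1842, which matches the group labels of all 12 libraries, although these counts include transcripts of the virus. Summed endothelial markers ranged from 20.9 to 61.4 CPM (counts scaled to an equal library total) in the control libraries and from 314 to 774 CPM in the *Sox17*-*Erg* libraries, while fibroblast markers summed to between 12824 and 42007 CPM in all libraries. On Day 3 the fibroblast sums were 33009 to 40262 CPM in the control and 26448 to 42007 CPM with *Sox17*-*Erg*. At Week 4 they were lower in both groups, at 16654 to 20226 and 12824 to 13445 CPM, and the groups did not overlap. Of the 10 endothelial markers, *Cldn5* alone was at 0 in any library (4 of 12). Cardiomyocyte markers summed to between 334 and 687 CPM with *Sox17*-*Erg* and 642 and 1525 CPM in the control, and mesothelial markers to between 146 and 331 and between 319 and 1465 CPM. Both sums were lower with *Sox17*-*Erg* at every time point. The sum of 8 mural markers was higher at every time point, at 1762 to 4644 CPM against 489 to 3629 CPM, but single genes differed: 4 of 8 were called higher and 2 lower at Week 4 (log2 fold change 4.72 to -2.34), and on Day 3 and Day 7 1 and 2 of 8 were below 0. Leukocyte markers summed to between 830.02 and 1239 CPM in the control Day 7 libraries and to at most 425 CPM in every other library. The part of these cell types in the results below was not tested, and in bulk RNA fewer cells of a type cannot be told apart from less RNA per cell.

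The promoters of the members are given first, for what the genes share in sequence. The E2F-type words below were chosen with earlier results of these data known. Windows of 300 bases around the start site (250 before, 50 after) were taken from RefSeq on build GRCm38.p6 for the 46 members with an entry in that table. *Gmnn*, *Gins4*, *Prim2*, *Gins1*, *Mcm4*, *Pole*, *Gins2* and *Rfc2* had none. Some of these start sites lie inside the gene positions taken from GENCODE, as for *Mcm7* and *E2f1*, so a window need not cover the outermost start of a gene. An E2F-type word (TTTCCCGC, TTTCGCGC, TTTGGCGC or TTTGCCGC, on either strand) was present in 19 of 46 members (41.3%), against 2.6% of the 27025 genes of the table and 4.41% of those tested here. Of the MCM genes 5 of 7 held one, and of RPA and nucleotide supply genes 0 of 3 and 0 of 4. A CCAAT word was present in 28 of 46 members (60.9%), against 41.1% of all genes and 43.0% of those tested here, and a CHR word (TTTGAA, either strand) in 8 of 46 (17.4%), against 20.2% of all genes and 14.9% of those tested here. These shares are a description of letters in the window and not of bound factors. Of the 7 members called between the groups below, *Cdc25a*, *Mcm6*, *Mcm7* and *Pola1* had a window with an E2F-type word, *Cdc45* had one without, and *Gmnn* and *Gins4* had no window. These 5 windows are printed here, with those of *Mcm5* and *Orc3*, which held a word and were not called. Capitals mark the E2F-type words, which may overlap: they overlap in *Mcm5*, and 2 of the 3 words overlap in *Mcm6*. In *Cdc45* capitals mark instead the CCAAT and CHR words, on either strand.
Cdc25a (chr9:109875329-109875628, plus strand): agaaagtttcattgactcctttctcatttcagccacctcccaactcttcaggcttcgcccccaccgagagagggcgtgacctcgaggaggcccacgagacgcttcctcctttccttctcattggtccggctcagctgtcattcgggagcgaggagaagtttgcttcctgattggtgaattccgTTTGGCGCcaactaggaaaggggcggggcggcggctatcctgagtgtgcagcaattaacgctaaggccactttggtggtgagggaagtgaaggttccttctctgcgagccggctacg
Mcm6 (chr1:128359656-128359955, minus strand): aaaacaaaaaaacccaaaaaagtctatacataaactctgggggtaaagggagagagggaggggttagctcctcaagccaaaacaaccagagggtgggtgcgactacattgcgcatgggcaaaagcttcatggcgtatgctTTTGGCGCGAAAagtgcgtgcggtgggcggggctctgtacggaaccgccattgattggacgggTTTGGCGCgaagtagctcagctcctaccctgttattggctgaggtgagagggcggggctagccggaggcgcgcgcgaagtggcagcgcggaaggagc
Mcm7 (chr5:138171834-138172133, minus strand): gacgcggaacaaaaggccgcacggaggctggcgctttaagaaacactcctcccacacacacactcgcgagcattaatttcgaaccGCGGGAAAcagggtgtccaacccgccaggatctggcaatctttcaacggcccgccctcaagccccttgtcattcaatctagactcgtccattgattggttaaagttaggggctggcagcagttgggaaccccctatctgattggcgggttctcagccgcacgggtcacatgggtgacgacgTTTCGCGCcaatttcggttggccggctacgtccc
Pola1 (chrX:93632106-93632405, minus strand): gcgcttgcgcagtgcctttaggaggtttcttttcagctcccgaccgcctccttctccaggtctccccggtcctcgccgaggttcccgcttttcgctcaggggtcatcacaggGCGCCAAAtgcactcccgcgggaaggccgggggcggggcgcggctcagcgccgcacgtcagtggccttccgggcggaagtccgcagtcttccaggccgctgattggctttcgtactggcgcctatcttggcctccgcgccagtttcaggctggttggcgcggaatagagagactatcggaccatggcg
Cdc45 (chr16:18811923-18812222, minus strand): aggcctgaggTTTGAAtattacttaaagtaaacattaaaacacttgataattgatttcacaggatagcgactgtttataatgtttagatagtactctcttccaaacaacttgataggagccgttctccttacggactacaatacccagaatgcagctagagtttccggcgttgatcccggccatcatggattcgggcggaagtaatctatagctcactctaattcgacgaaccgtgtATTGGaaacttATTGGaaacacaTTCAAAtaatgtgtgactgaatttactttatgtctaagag
Mcm5 (chr8:75109259-75109558, plus strand): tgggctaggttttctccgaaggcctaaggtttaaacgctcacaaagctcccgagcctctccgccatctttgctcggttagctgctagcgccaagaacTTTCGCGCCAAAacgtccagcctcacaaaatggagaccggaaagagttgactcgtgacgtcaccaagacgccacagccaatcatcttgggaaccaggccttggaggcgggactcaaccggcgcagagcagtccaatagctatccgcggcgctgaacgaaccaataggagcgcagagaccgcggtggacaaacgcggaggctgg
Orc3 (chr4:34614893-34615192, minus strand): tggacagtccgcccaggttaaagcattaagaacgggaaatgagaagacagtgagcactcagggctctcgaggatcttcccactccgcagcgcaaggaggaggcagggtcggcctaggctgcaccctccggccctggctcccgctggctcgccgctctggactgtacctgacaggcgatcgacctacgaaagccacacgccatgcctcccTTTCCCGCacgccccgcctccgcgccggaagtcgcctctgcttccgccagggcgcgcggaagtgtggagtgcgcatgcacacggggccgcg

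**Figure D1:**
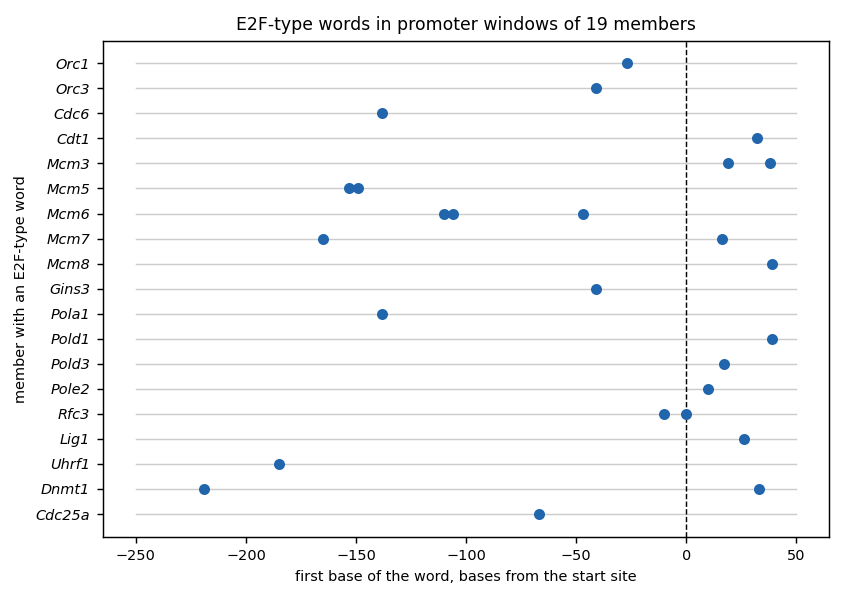
Position of each E2F-type word (points, first base) relative to the start site (dashed line, bases) in the promoter windows (grey lines) of the 19 members that held one; the words lay on both sides of the start site.

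Among the members with a window, the 19 with an E2F-type word had a median log2 fold change of 1.06 between the *Sox17*-*Erg* and control groups on Day 3, and the 27 without had 0.82. On Day 7 the medians were 0.64 and 0.28, and at Week 4 0.45 and 0.16. The ranges overlapped on Day 3 (0.05 to 1.57 and 0.10 to 1.60). From Day 3 to Week 4 the medians were -0.99 and -0.97 in the control and -1.77 and -1.71 in the *Sox17*-*Erg* group. The difference was not tested. *Orc3* held a word, and its level is given below.

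In the *Sox17*-*Erg* libraries on Day 3 the DNA replication genes were higher than in the control as a group. Per kilobase of transcript, the scale on which genes can be compared, *Pcna* had the highest level in each group, at 31.6 ± 5.26 CPM per kb (SD, n = 2) in the control and 58.5 ± 8.63 with *Sox17*-*Erg* on Day 3. Summed over the 54 members, mRNA was 2132 and 1777 CPM in the *Sox17*-*Erg* libraries and 1182 and 1037 CPM in the control libraries. On Day 7 the sums were 1493 and 951 CPM against 1164 and 706 CPM, and at Week 4 they were 601 and 754 CPM against 569 and 703 CPM. The 2 groups did not overlap on Day 3 and overlapped on Day 7 and at Week 4. All 54 members had a positive fold change on Day 3, with a median log2 fold change of 0.93. On Day 7 and at Week 4, 49 and 36 were positive, with medians of 0.42 and 0.20. Over all tested genes the medians were 0.01 at Day 3 and Day 7 and -0.01 at Week 4.

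**Figure D2:**
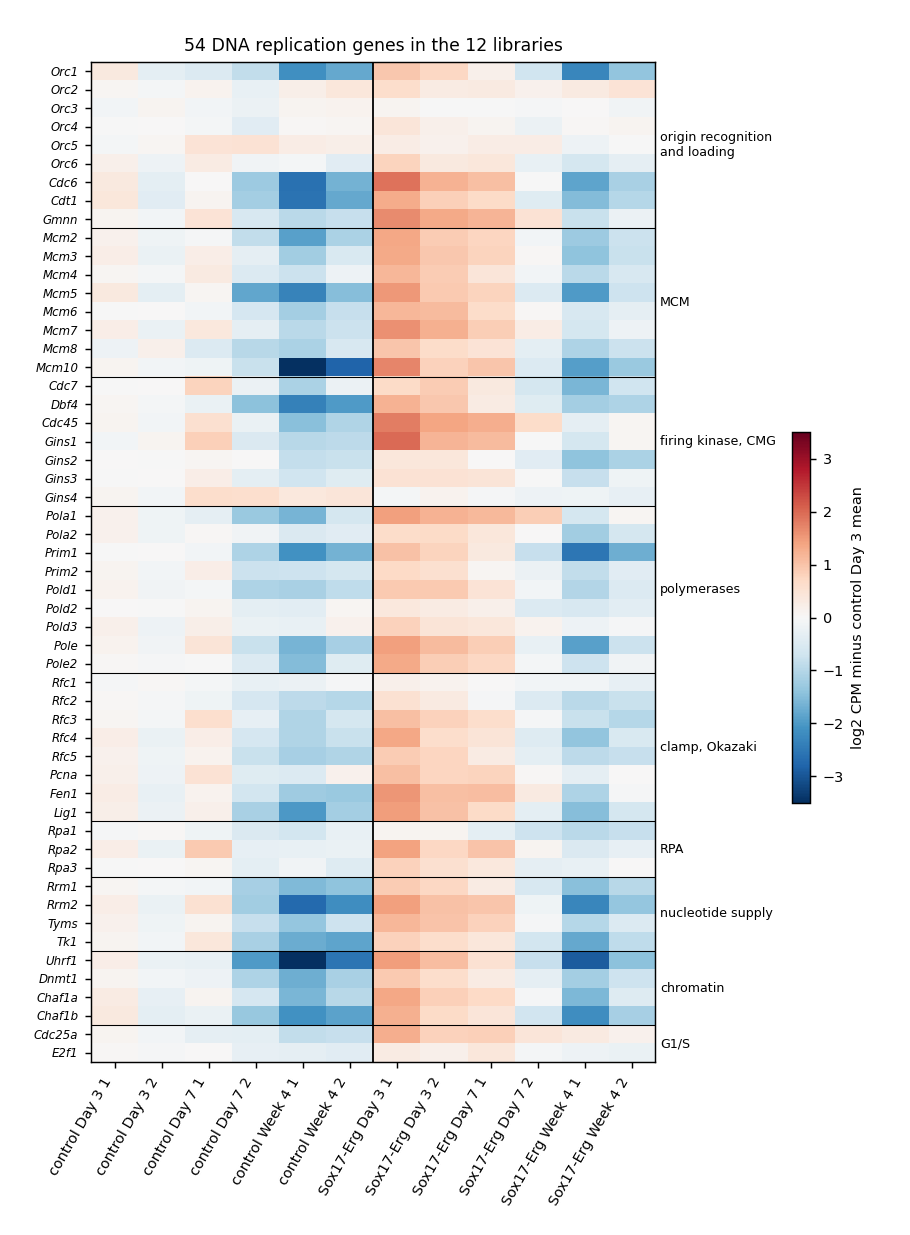
Level of each member (rows, ordered by role) in the 12 libraries (columns), as log2 CPM minus the mean of the control Day 3 libraries; red is higher and blue lower. *Sox17*-*Erg* Day 3 libraries are red in nearly every row, and the control Week 4 libraries are blue in most rows.

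On Day 3, 52 of 54 members were above both controls in both *Sox17*-*Erg* libraries, the exceptions being *Gins4* and *Orc3*. Of all tested genes 34.1% showed the same separation. The share of all tested genes that met the same rule is given below as the background. By edgeR's quasi-likelihood test with Benjamini-Hochberg adjustment 5 members were higher at an adjusted p under 0.05 (background 7.19%), namely *Gmnn*, *Mcm6*, *Mcm7*, *Cdc45* and *Cdc25a*. None was lower (0 of 54, background 5.13%), with 0 by DESeq2 (8.32% of all genes) and 0 at an unadjusted p under 0.05 (13.3% of all genes). A count of 5 of 54 is near the background share. It was 0 without control replicate 1, control replicate 2 or *Sox17*-*Erg* replicate 1 of Day 3 (1.61%, 1.25% and 1.28% of all genes in those fits). It was 8 without control Day 7 replicate 1 and 10 without control Day 7 replicate 2 (5.54% and 6.76% of all genes). DESeq2 called 14 (9.09% of all genes). An unadjusted p under 0.05 with a higher level was found in 34 members (16.8% of all genes). Same-numbered libraries of a time point deviated together (correlation over genes 0.19 on Day 3, 0.30 on Day 7 and 0.17 at Week 4). With the replicate number as a block within each time point, an analysis chosen after seeing the data, 39 members were higher on Day 3, where 12.7% of all genes were. That block fits an added term for each time point, which leaves less to estimate the spread from. The labels do not say what a replicate number marks.

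On Day 7, 2 members were higher (background 9.48%), *Pola1* and *Cdc25a*, and 1 was lower (background 7.93%), *Gins4*. At Week 4, 2 were higher (background 11.9%), *Cdc45* and *Cdc25a*, and 1 was lower (background 11%), again *Gins4*. With the block within each time point the counts were 22 higher and 1 lower on Day 7 (13.8% and 13.3% of all genes) and 13 higher and 3 lower at Week 4 (15.5% and 15.5%), where *Gins2* and *Rpa1* joined *Gins4* among the lower. Without control Day 7 replicate 2 or *Sox17*-*Erg* Day 7 replicate 1 the Day 7 count of higher members was 0 (4.91% and 3.85% of all genes), and without control Day 7 replicate 1 it was 6 (6.22%). The *Cdc25a* call at Week 4 held on leaving out any library. At Week 4 the count of higher members was 1 without any 1 library of the control Day 3, control Week 4 or *Sox17*-*Erg* Week 4 groups (6.5% to 10.9% of all genes). The members that stood clear of the control numbered 9 higher (background 29%) and 3 lower (background 28.8%) on Day 7, and 13 higher (background 30.3%) and 8 lower (background 32.5%) at Week 4. Each of these shares was below its background. The count of lower members at Week 4 was 2 without *Sox17*-*Erg* Day 7 replicate 1 or 2 or *Sox17*-*Erg* Week 4 replicate 2 (10.5%, 10.6% and 7.21% of all genes).

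**Figure D3:**
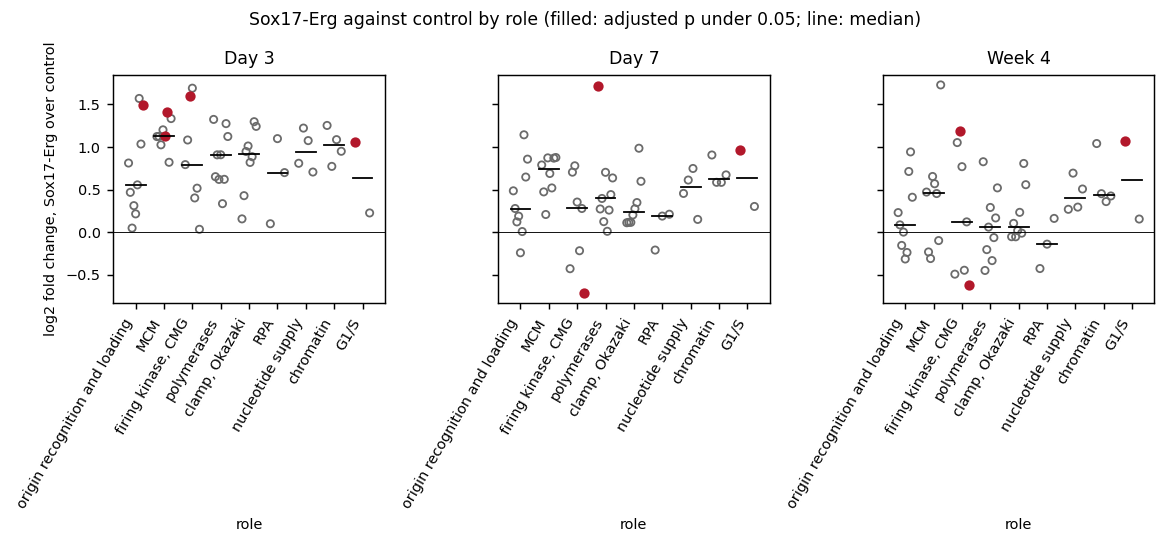
Log2 fold change of *Sox17*-*Erg* over control for each member, by role (x axis) at the 3 time points; filled points passed an adjusted p under 0.05, lines are role medians. Medians were highest on Day 3 for MCM and chromatin members.

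Across roles on Day 3 the median log2 fold change was 0.56 for origin recognition and loading, 1.13 for MCM, 0.79 for firing kinase and CMG cofactors, 0.91 for polymerases, 0.92 for the clamp and Okazaki genes, 0.70 for RPA, 0.94 for nucleotide supply, 1.02 for chromatin and 0.64 for G1/S control. At Week 4 the same medians were 0.09, 0.46, 0.12, 0.06, 0.06, -0.14, 0.40, 0.44 and 0.62. The MCM, nucleotide supply, chromatin and G1/S roles had the larger Week 4 medians, and RPA had the only one below 0. The G1/S role holds only *Cdc25a* and *E2f1*, and RPA only *Rpa1*, *Rpa2* and *Rpa3*, so their medians rest on few genes.

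Among the genes that recognize and load origins, *Gmnn*, which encodes geminin, had the smallest p. *Gmnn* (ENSMUSG00000006715, chr13:24751845-24761923, positions on GRCm38) was at 8.88 and 7.68 CPM on Day 3, 11.4 and 5.55 on Day 7 and 4.26 and 4.72 at Week 4 in the control. *Gmnn* with *Sox17*-*Erg* was at 25.96 and 20.8, 19.02 and 11.7 and 4.74 and 7.19 CPM at these times. The Day 3 libraries did not overlap, the log2 fold change was 1.49 ± 0.36 (SE, n = 2 per group) and the adjusted p was 0.0298. *Orc3*, a subunit of the origin recognition complex, had the largest p. It was at 24.2 and 27.1 CPM on Day 3, 23.7 and 22.3 on Day 7 and 27.4 and 27.7 at Week 4 in the control. *Orc3* with *Sox17*-*Erg* was at 27.5 and 25.6, 25.1 and 24.96 and 26.1 and 23.5 CPM at these times. Its log2 fold change on Day 3 was 0.05 ± 0.11 (95% interval -0.19 to 0.29). *Cdc6*, the licensing ATPase, was at 3.64 and 2.22 CPM on Day 3, 2.88 and 1.13 on Day 7 and 0.401 and 0.854 at Week 4 in the control. *Cdc6* with *Sox17*-*Erg* was at 10.8 and 6.68, 6.01 and 2.81 and 0.743 and 1.26 CPM at these times. Its libraries did not overlap on Day 3 (log2 fold change 1.57 ± 0.56, adjusted p = 0.0984) and did at the later times. *Orc2*, *Orc4*, *Orc5* and *Orc6* had log2 fold changes of 0.47, 0.31, 0.22 and 0.56 on Day 3, and *Orc1* and *Cdt1* of 0.81 and 1.04. Origin and loading genes that passed with the replicate block within each time point, and not without it, all higher with *Sox17*-*Erg*, were *Orc2* (0.0309), *Cdc6* (0.00501) and *Cdt1* (0.00893) on Day 3, with the adjusted p in parentheses. On Day 7 *Cdc6* (0.0108), *Cdt1* (0.0378) and *Gmnn* (0.00869) did so. At Week 4 *Cdt1* (0.0142) did so.

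In the MCM role, *Mcm6* and *Mcm7* encode 2 of the helicase subunits. *Mcm6* (ENSMUSG00000026355, chr1:128331590-128359664) was at 35.002 and 36.2 CPM on Day 3, 33.4 and 23.6 on Day 7 and 15.6 and 20.3 at Week 4 in the control. *Mcm6* with *Sox17*-*Erg* was at 79.4 and 76.5, 55.1 and 36.9 and 24.3 and 28.8 CPM at these times. It stayed above the controls at each time, with log2 fold changes of 1.13 ± 0.22, 0.69 ± 0.22 and 0.57 ± 0.23, and passed on Day 3 (adjusted p = 0.016). *Mcm7* (ENSMUSG00000029730, chr5:138164583-138172422) was at 23.7 and 16.8 CPM on Day 3, 25.96 and 16.1 on Day 7 and 10.4 and 11.9 at Week 4 in the control. *Mcm7* with *Sox17*-*Erg* was at 60.98 and 47.1, 36.3 and 23.99 and 12.95 and 17.6 CPM at these times, with a log2 fold change of 1.41 ± 0.30 on Day 3 (adjusted p = 0.0189) and 0.45 ± 0.30 at Week 4. *Mcm7* was higher in both *Sox17*-*Erg* libraries on Day 3 and at Week 4, and the groups overlapped on Day 7. *Mcm7* counts are uncertain because 26.8% of the 31-base stretches of its transcripts occur in other genes as well. The other members *Mcm2*, *Mcm3*, *Mcm4* and *Mcm8* had log2 fold changes of 1.12, 1.13, 1.03 and 0.82 on Day 3. *Mcm5*, also a helicase subunit, was at 24.7 and 15.5 CPM on Day 3, 20.7 and 5.47 on Day 7 and 3.83 and 6.87 at Week 4 in the control. *Mcm5* with *Sox17*-*Erg* was at 56.1 and 36.8, 33.6 and 14.1 and 4.88 and 11.8 CPM at these times, with a log2 fold change of 1.20 ± 0.66 on Day 3 (adjusted p = 0.254). *Mcm5* was higher in both *Sox17*-*Erg* libraries on Day 3, and the groups overlapped on Day 7 and at Week 4. *Mcm10*, which stabilizes the helicase, was at 4.95 and 4.39 CPM on Day 3, 4.19 and 2.69 on Day 7 and 0.326 and 0.610 at Week 4 in the control. *Mcm10* with *Sox17*-*Erg* was at 15.4 and 8.19, 9.26 and 3.30 and 1.17 and 1.85 CPM at these times. *Mcm10* was higher in both *Sox17*-*Erg* libraries on Day 3 and at Week 4, and the groups overlapped on Day 7. Its log2 fold change was 1.33 ± 0.51 on Day 3 and 1.73 ± 0.61 at Week 4 (adjusted p = 0.0724). MCM genes that passed with the replicate block within each time point, and not without it, all higher with *Sox17*-*Erg*, were *Mcm2* (0.00161), *Mcm3* (0.00126), *Mcm4* (0.00254), *Mcm5* (0.00523) and *Mcm10* (0.0196) on Day 3, with the adjusted p in parentheses. On Day 7 *Mcm2* (0.00282), *Mcm3* (0.0164), *Mcm5* (0.00781), *Mcm6* (0.00287) and *Mcm7* (0.011) did so. At Week 4 *Mcm2* (0.0155), *Mcm6* (0.00451), *Mcm7* (0.0211) and *Mcm10* (0.0124) did so.

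*Cdc45* (ENSMUSG00000000028, chr16:18780447-18811987), the CMG helicase cofactor, was at 4.002 and 3.56 CPM on Day 3, 5.61 and 3.22 on Day 7 and 1.33 and 1.79 at Week 4 in the control. *Cdc45* with *Sox17*-*Erg* was at 13.2 and 9.87, 9.24 and 5.89 and 3.04 and 4.0001 CPM at these times. The groups stood apart at all times, and log2 fold changes of 1.60 ± 0.34 on Day 3 and 1.18 ± 0.35 at Week 4 passed (adjusted p = 0.0186 and 0.038). *Gins4* (ENSMUSG00000031546, chr8:23226616-23237659), a subunit of GINS, went the other way. It was at 18.1 and 15.8 CPM on Day 3, 26.04 and 25.4 on Day 7 and 21.9 and 22.7 at Week 4 in the control. *Gins4* with *Sox17*-*Erg* was at 16.2 and 18.5, 16.4 and 14.98 and 15.1 and 13.7 CPM at these times, so on Day 3 the libraries overlapped and later all the *Sox17*-*Erg* values were lower. The log2 fold change was -0.71 ± 0.12 on Day 7 (adjusted p = 0.00515) and -0.62 ± 0.12 at Week 4 (adjusted p = 0.00662), and both calls held on leaving out any library. *Gins3*, a further GINS subunit, was at 3.13 and 3.14 CPM on Day 3, 3.73 and 2.45 on Day 7 and 1.90 and 2.32 at Week 4 in the control. *Gins3* with *Sox17*-*Erg* was at 4.50 and 4.48, 4.36 and 3.12 and 1.77 and 2.81 CPM at these times, with a log2 fold change of 0.52 ± 0.31 on Day 3. *Gins3* was higher in both *Sox17*-*Erg* libraries on Day 3, and the groups overlapped on Day 7 and at Week 4. The kinase genes *Cdc7* and *Dbf4* had log2 fold changes of 0.79 and 1.08 on Day 3, and the GINS genes *Gins1* and *Gins2* had 1.69 and 0.40. Kinase and CMG genes that passed with the replicate block within each time point, and not without it, were *Cdc7* (0.0155), *Dbf4* (0.00416) and *Gins1* (0.0212) on Day 3, higher with *Sox17*-*Erg* and with the adjusted p in parentheses. On Day 7 *Dbf4* (0.0103) and *Cdc45* (0.0175) did so as higher. At Week 4 *Dbf4* (0.00309) did so as higher and *Gins2* (0.0428) as lower.

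**Figure D4:**
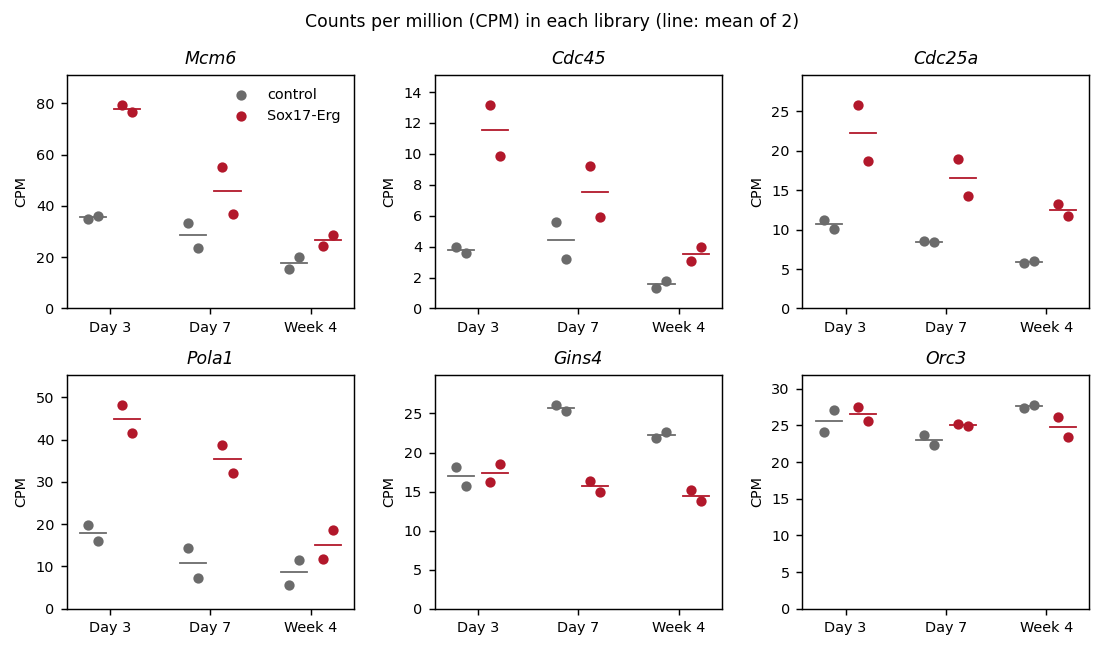
Level (CPM, y axis from 0) of 6 members in each library (points, 2 per group; lines are means) at 3 time points. *Mcm6*, *Cdc45*, *Cdc25a* and *Pola1* are higher in the *Sox17*-*Erg* libraries on Day 3, *Gins4* is lower from Day 7 and *Orc3* is level.

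Polymerase genes were led by *Pola1* (ENSMUSG00000006678, chrX:93304767-93632155), the catalytic subunit of polymerase alpha. It was at 19.8 and 15.95 CPM on Day 3, 14.3 and 7.19 on Day 7 and 5.69 and 11.5 at Week 4 in the control. *Pola1* with *Sox17*-*Erg* was at 48.1 and 41.5, 38.7 and 32.1 and 11.6 and 18.7 CPM at these times, with no overlap at any of the 3 times. The log2 fold change of 1.72 ± 0.39 on Day 7 passed (adjusted p = 0.0177), and on Day 3 it was 1.32 ± 0.39 (adjusted p = 0.055). *Prim1*, the primase catalytic subunit, was at 5.57 and 5.78 CPM on Day 3, 5.34 and 2.65 on Day 7 and 1.25 and 1.75 at Week 4 in the control. *Prim1* with *Sox17*-*Erg* was at 11.5 and 9.78, 7.25 and 3.21 and 0.920 and 1.67 CPM at these times and had a log2 fold change of 0.91 ± 0.44 on Day 3. *Prim1* was higher in both *Sox17*-*Erg* libraries on Day 3, and the groups overlapped on Day 7 and at Week 4. *Pold2*, an accessory subunit of polymerase delta, was at 14.01 and 13.9 CPM on Day 3, 14.8 and 10.9 on Day 7 and 10.8 and 14.7 at Week 4 in the control. *Pold2* with *Sox17*-*Erg* was at 18.1 and 17.2, 15.8 and 10.02 and 9.45 and 10.8 CPM at these times, with a log2 fold change of 0.34 ± 0.24 on Day 3 (95% interval -0.21 to 0.88). *Pold2* was higher in both *Sox17*-*Erg* libraries on Day 3 and lower in both *Sox17*-*Erg* libraries at Week 4, and the groups overlapped on Day 7. The other 6 polymerase genes ranged from a log2 fold change of 0.62 (*Prim2*) to 1.28 (*Pole*) on Day 3. Polymerase genes that passed with the replicate block within each time point, and not without it, all higher with *Sox17*-*Erg*, were *Pola1* (0.00402), *Pola2* (0.034), *Prim1* (0.0186), *Pold1* (0.00718), *Pold3* (0.0211), *Pole* (0.00363) and *Pole2* (0.0241) on Day 3, with the adjusted p in parentheses. On Day 7 *Pold1* (0.0115) did so. At Week 4 *Pola1* (0.0123) did so.

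The clamp gene *Pcna* was at 53.6 and 42.3 CPM on Day 3, 67.8 and 35.6 on Day 7 and 33.9 and 52.9 at Week 4 in the control. *Pcna* with *Sox17*-*Erg* was at 98.02 and 79.5, 82.2 and 49.3 and 38.3 and 47.8 CPM at these times, with a log2 fold change of 0.89 ± 0.35 on Day 3 (adjusted p = 0.127) and -0.01 ± 0.35 at Week 4. *Pcna* was higher in both *Sox17*-*Erg* libraries on Day 3, and the groups overlapped on Day 7 and at Week 4. Its level is uncertain, since 23.3% of its 31-base stretches are shared with other genes. *Fen1*, the flap nuclease of Okazaki fragments, was at 11.8 and 8.18 CPM on Day 3, 10.6 and 6.23 on Day 7 and 4.08 and 3.94 at Week 4 in the control. *Fen1* with *Sox17*-*Erg* was at 28.7 and 20.5, 20.98 and 12.3 and 4.57 and 9.52 CPM at these times. *Fen1* stood clear of the control on each day, with a log2 fold change of 1.30 ± 0.40 on Day 3 (adjusted p = 0.0663). *Rfc1*, the large subunit of the clamp loader, was at 51.8 and 54.3 CPM on Day 3, 50.9 and 44.01 on Day 7 and 45.7 and 51.4 at Week 4 in the control. *Rfc1* with *Sox17*-*Erg* was at 60.3 and 58.1, 53.3 and 49.2 and 50.1 and 43.4 CPM at these times, with a log2 fold change of 0.16 ± 0.12 on Day 3 (95% interval -0.11 to 0.42). *Rfc1* was higher in both *Sox17*-*Erg* libraries on Day 3, and the groups overlapped on Day 7 and at Week 4. *Rfc2*, *Rfc3*, *Rfc4*, *Rfc5* and the ligase gene *Lig1* had log2 fold changes of 0.43, 0.95, 1.01, 0.82 and 1.24 on Day 3. Clamp and Okazaki genes that passed with the replicate block within each time point, and not without it, all higher with *Sox17*-*Erg*, were *Rfc2* (0.0317), *Rfc3* (0.0259), *Rfc4* (0.0199), *Rfc5* (0.00888), *Pcna* (0.00341), *Fen1* (0.0102) and *Lig1* (0.00141) on Day 3, with the adjusted p in parentheses. On Day 7 *Pcna* (0.0458), *Fen1* (0.0225) and *Lig1* (0.00783) did so. At Week 4 *Lig1* (0.0147) did so.

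RPA coats single-stranded DNA. *Rpa1* was at 103 and 109 CPM on Day 3, 96.2 and 74.2 on Day 7 and 67.9 and 88.2 at Week 4 in the control. *Rpa1* with *Sox17*-*Erg* was at 114 and 114, 83.4 and 64.02 and 55.4 and 60.9 CPM at these times, and its log2 fold change went from 0.10 ± 0.18 on Day 3 to -0.43 ± 0.18 at Week 4 (adjusted p = 0.117). *Rpa1* was higher in both *Sox17*-*Erg* libraries on Day 3 and lower in both *Sox17*-*Erg* libraries at Week 4, and the groups overlapped on Day 7. *Rpa3* was at 7.28 and 7.40 CPM on Day 3, 7.68 and 5.75 on Day 7 and 6.69 and 5.37 at Week 4 in the control. *Rpa3* with *Sox17*-*Erg* was at 13.01 and 10.9, 9.57 and 5.93 and 6.09 and 7.44 CPM at these times, with a log2 fold change of 0.70 ± 0.26 on Day 3, and 13.3% of its 31-base stretches are shared with other genes. *Rpa3* was higher in both *Sox17*-*Erg* libraries on Day 3, and the groups overlapped on Day 7 and at Week 4. *Rpa2* had a log2 fold change of 1.10 on Day 3. RPA genes that passed with the replicate block within each time point, and not without it, were *Rpa2* (0.00577) and *Rpa3* (0.0458) on Day 3, higher with *Sox17*-*Erg* and with the adjusted p in parentheses. At Week 4 *Rpa1* (0.0161) did so as lower.

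Of the genes of nucleotide supply, *Tyms* makes thymidylate and *Tk1* recycles thymidine, and *Rrm2* encodes the small subunit of ribonucleotide reductase. *Tyms* was at 18.8 and 15.3 CPM on Day 3, 18.05 and 9.61 on Day 7 and 6.54 and 10.2 at Week 4 in the control. *Tyms* with *Sox17*-*Erg* was at 38.1 and 33.95, 29.9 and 16.5 and 8.42 and 12.1 CPM at these times, with a log2 fold change of 1.08 ± 0.37 on Day 3 (adjusted p = 0.0865). *Tyms* was higher in both *Sox17*-*Erg* libraries on Day 3, and the groups overlapped on Day 7 and at Week 4. *Rrm2* was at 42.6 and 30.6 CPM on Day 3, 52.7 and 15.4 on Day 7 and 5.41 and 7.89 at Week 4 in the control. *Rrm2* with *Sox17*-*Erg* was at 97.4 and 73.6, 71.2 and 32.7 and 7.29 and 14.1 CPM at these times, with a log2 fold change of 1.22 ± 0.57 on Day 3 (adjusted p = 0.182), and 11.98% of its 31-base stretches are shared. *Rrm2* was higher in both *Sox17*-*Erg* libraries on Day 3, and the groups overlapped on Day 7 and at Week 4. *Tk1* was at 18.5 and 15.95 CPM on Day 3, 22.7 and 7.72 on Day 7 and 5.11 and 4.76 at Week 4 in the control. *Tk1* with *Sox17*-*Erg* was at 29.9 and 26.4, 22.6 and 11.1 and 4.88 and 9.19 CPM at these times, with a log2 fold change of 0.71 ± 0.49 on Day 3 (adjusted p = 0.365). *Tk1* was higher in both *Sox17*-*Erg* libraries on Day 3, and the groups overlapped on Day 7 and at Week 4. The remaining gene, *Rrm1*, had a log2 fold change of 0.81 on Day 3. Nucleotide supply genes that passed with the replicate block within each time point, and not without it, all higher with *Sox17*-*Erg*, were *Rrm1* (0.00455), *Rrm2* (0.00452) and *Tyms* (0.00173) on Day 3, with the adjusted p in parentheses. On Day 7 *Rrm1* (0.0195), *Rrm2* (0.0187) and *Tyms* (0.00316) did so. At Week 4 *Rrm2* (0.0387) did so.

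Replication-coupled chromatin genes were represented by *Uhrf1*, which guides DNA methylation to new strands, and *Chaf1a*, a subunit of the CAF-1 histone chaperone. *Uhrf1* was at 38.9 and 27.8 CPM on Day 3, 27.3 and 8.32 on Day 7 and 2.56 and 5.53 at Week 4 in the control. *Uhrf1* with *Sox17*-*Erg* was at 90.2 and 69.2, 47.8 and 18.9 and 4.28 and 12.1 CPM at these times, with a log2 fold change of 1.25 ± 0.66 on Day 3 (adjusted p = 0.234), and 24.2% of its 31-base stretches are shared with other genes. *Uhrf1* was higher in both *Sox17*-*Erg* libraries on Day 3, and the groups overlapped on Day 7 and at Week 4. *Chaf1a* was at 20.2 and 13.6 CPM on Day 3, 17.7 and 11.1 on Day 7 and 5.44 and 8.46 at Week 4 in the control. *Chaf1a* with *Sox17*-*Erg* was at 42.4 and 29.7, 26.96 and 16.2 and 5.52 and 12.2 CPM at these times, with a log2 fold change of 1.09 ± 0.43 on Day 3 (adjusted p = 0.125). *Chaf1a* was higher in both *Sox17*-*Erg* libraries on Day 3, and the groups overlapped on Day 7 and at Week 4. The methyltransferase gene *Dnmt1* and *Chaf1b* had log2 fold changes of 0.77 and 0.95 on Day 3. Chromatin genes that passed with the replicate block within each time point, and not without it, all higher with *Sox17*-*Erg*, were *Uhrf1* (0.00209), *Dnmt1* (0.00429), *Chaf1a* (0.00342) and *Chaf1b* (0.0156) on Day 3, with the adjusted p in parentheses. On Day 7 *Uhrf1* (0.00287), *Dnmt1* (0.00615) and *Chaf1a* (0.0218) did so. At Week 4 *Uhrf1* (0.00393) and *Dnmt1* (0.0161) did so.

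Of the G1/S genes, *Cdc25a* (ENSMUSG00000032477, chr9:109875579-109893895), the phosphatase that activates CDK2, was the only member called higher at every time. It was at 11.3 and 10.03 CPM on Day 3, 8.53 and 8.44 on Day 7 and 5.81 and 6.06 at Week 4 in the control. *Cdc25a* with *Sox17*-*Erg* was at 25.8 and 18.7, 18.97 and 14.2 and 13.3 and 11.7 CPM at these times, and log2 fold changes of 1.06 ± 0.19, 0.97 ± 0.19 and 1.08 ± 0.20 passed on Day 3, Day 7 and at Week 4 (adjusted p = 0.0119, 0.00969 and 0.00444). *Cdc25a* was higher in both *Sox17*-*Erg* libraries at all times. *E2f1*, an E2F factor, was at 23.2 and 21.7 CPM on Day 3, 22.6 and 18.4 on Day 7 and 18.02 and 16.9 at Week 4 in the control. *E2f1* with *Sox17*-*Erg* was at 27.3 and 25.3, 29.3 and 21.3 and 19.998 and 18.9 CPM at these times, with a log2 fold change of 0.23 ± 0.16 on Day 3 (95% interval -0.14 to 0.59). *E2f1* was higher in both *Sox17*-*Erg* libraries on Day 3 and at Week 4, and the groups overlapped on Day 7. An exact permutation test over all 12 libraries, with labels permuted within each time point, had a smallest possible p of 0.00926, and 6 members reached it: *Gmnn*, *Mcm6*, *Cdc45*, *Pola1*, *Fen1* and *Cdc25a*. All 6 were higher with *Sox17*-*Erg*, a share of the members below the 14.6% of all tested genes that reached it in that direction. No adjustment over the members was made, and 2 libraries against 2 at 1 time point could not go below 0.33.

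Replication mRNA was lower at Week 4 than on Day 3 in both groups. In the control, 21 members fell between Day 3 and Week 4 (background 12.6%) and *Gins4* rose (background 13.9%), with a median log2 fold change of -0.95. In the *Sox17*-*Erg* group 46 fell (background 15.6%) and 0 rose (background 15.1%), with a median of -1.74. Of these called falls, 17 in the control and 40 in the *Sox17*-*Erg* group were of 1 or more on the log2 scale (6.36% and 6.57% of all genes). Both Week 4 libraries were below both Day 3 libraries in 45 control members (background 34.5%) and 52 *Sox17*-*Erg* members (background 34.7%). All 21 members that fell in the control also fell in the *Sox17*-*Erg* group. Members that did not pass in the *Sox17*-*Erg* group were *Orc2*, *Orc3*, *Orc4*, *Orc5*, *Gins4*, *Rfc1*, *Pcna* and *E2f1*.

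The control count of falls was 4 without control Day 3 replicate 1 or control Week 4 replicate 1 (5.48% and 4.93% of all genes), 10 without control Day 3 replicate 2 (5.9%) and 13 without control Week 4 replicate 2 (8.42%). The *Sox17*-*Erg* count was 25 without Day 3 replicate 1 and 15 without Week 4 replicate 1 of that group (5.5% and 5% of all genes). In the control the falls were largest for *Mcm10* (-3.36 ± 0.60, adjusted p = 0.00479) and *Uhrf1* (-3.07 ± 0.73). *Mcm10* had only 13 and 15 counts in the control Week 4 libraries. In the *Sox17*-*Erg* group they were largest for *Uhrf1* (-3.29 ± 0.72), *Cdc6* (-3.12 ± 0.61), *Prim1* (-3.04 ± 0.49) and *Rrm2* (-3.00 ± 0.61), and *Mcm10* fell by -2.96. *Cdc6*, *Prim1* and *Rrm2* changed by -2.27, -1.93 and -2.47 in the control. *Gins4* differed from these in the control, with a log2 fold change of 0.39 ± 0.12 (adjusted p = 0.0427), a call lost without either control Day 3 library, either control Week 4 library, control Day 7 replicate 2, *Sox17*-*Erg* Day 3 replicate 2 or *Sox17*-*Erg* Day 7 replicate 1.

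**Figure D5:**
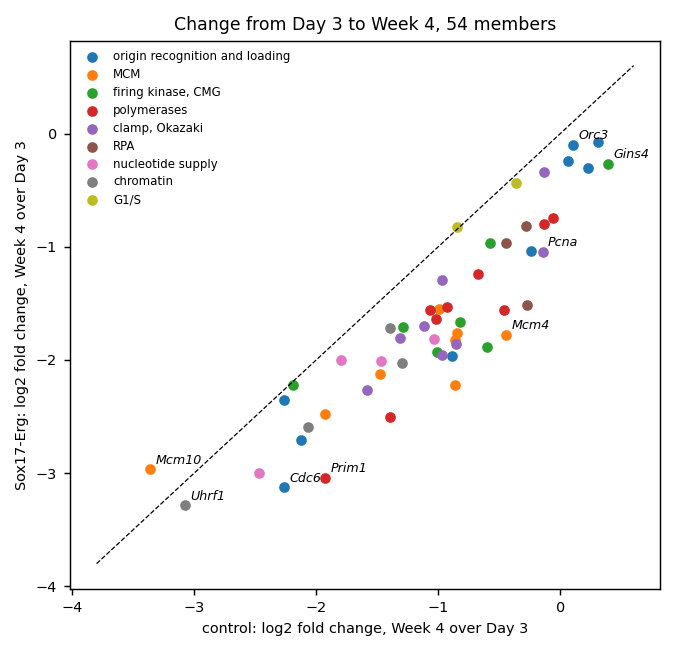
Log2 fold change from Day 3 to Week 4 in the control (x) and the *Sox17*-*Erg* group (y) for the 54 members, coloured by role; the dashed line marks equal change. Most points lie below the line, and *Gins4* is the called member that rose in the control.

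From Day 3 to Day 7, in the control 1 member, *Gins4*, rose (0.60 ± 0.12, adjusted p = 0.0223, background 4.7%, a call lost without any 1 of the 4 control Day 3 and Day 7 libraries), and 0 fell (background 4.06%), with 0 by DESeq2 (6.54% of all genes). In either direction 2 control members had an unadjusted p under 0.05 (26.4% of all genes). In the *Sox17*-*Erg* group 0 fell (background 1.38%) by edgeR, 15 had an unadjusted p under 0.05 and a lower level (11.6% of all genes), and DESeq2 called 5 (4.3% of all genes). The difference in effect between time points was also tested directly; both comparisons use the same Day 3 libraries. Fold changes were smaller at Week 4 than on Day 3 in 52 members and at Day 7 in 50, but 0 members passed (background 3.21% and 0.0838%), and 7 and 3 had a lower effect at an unadjusted p under 0.05 (8.22% and 3.91% of all genes). DESeq2 called 3 and 0 lower (2.35% and 0.619% of all genes). With the number as a block within each time point 11 members were lower at Week 4, among them *Gmnn*, *Mcm3*, *Mcm4*, *Mcm7*, *Cdc7*, *Pole*, *Pcna* and *Tyms*, where 2.77% of all genes were, and 0 at Day 7.

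Replicate 1 was the higher library for most members on Day 3 and Day 7 and the lower at Week 4 in both groups: it was the higher in 42, 53 and 7 members in the control and in 50, 53 and 6 in the *Sox17*-*Erg* group at the 3 times, where 48.2% to 52.1% of all genes were higher in replicate 1. Compared by number, the *Sox17*-*Erg* library was the higher in both pairs in 52 members on Day 3, in 45 on Day 7 and in 26 at Week 4 (40.4%, 39.3% and 36% of all genes). It was the lower in both pairs in 0, 5 and 12 members (37.7%, 37.7% and 38.5% of all genes).

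A list of 47 other replication genes, such as fork protection and checkpoint genes, was read in the same fit. On Day 3, 3 were higher (7.19% of all genes), *Rnaseh2c*, *Chtf8* and *Mcmbp* (log2 fold change 0.76, 0.41 and 0.39), with a median of 0.85 over the list. DESeq2 called 9 higher on Day 3 (9.09% of all genes), and 3 on Day 7 and 3 at Week 4 (10.8% and 13.5%). It called 0, 1 and 2 lower at the 3 times (8.32%, 10.3% and 12.4%). On Day 7, 1 was higher (9.48% of all genes), *Chtf8* (0.34), and *Samhd1*, which breaks down deoxynucleotides, was lower (-0.52, with 7.93% of all genes lower), with a median of 0.40. At Week 4, 3 were higher (11.9% of all genes), *Top2a*, *Hells* and *Chtf8* (log2 fold change 2.15 ± 0.67, adjusted p = 0.0471, 1.63 ± 0.52, adjusted p = 0.0497, and 0.33), *Samhd1* was lower (-0.78, with 11% of all genes lower), and the median was 0.24. *Top2a* and *Hells* were named because their absolute Week 4 log2 fold changes were among the largest of the list. The other called genes were named after their values were seen.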

How the data were processed

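Bulk mRNA was sequenced in 12 libraries, 2 for each of 6 groups, which the labels name by virus and time point. Per the study's methods and the submitters' processing notes, the authors demultiplexed the reads with bcl2fastq 2.20.0, trimmed high GC content with BBDuk and quantified transcripts with Salmon (version not given in the sources used here) on build mm10. The deposited table holds the authors' estimated counts per Ensembl gene, already whole numbers, with totals of 19011635 to 41240449 per library. The annotation used is not given in the sources used here.

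Counts were analysed in R 4.3.3 with edgeR 4.0.16: genes were kept by filterByExpr (minimum count 10, minimum total 15), scaled by TMM, and tested by quasi-likelihood with 1 mean per group over all 12 libraries. A gene was called where its p, adjusted by Benjamini-Hochberg over the 15506 genes tested, was under 0.05. CPM use TMM-scaled library sizes. DESeq2, also the authors' tool, was run here in version 1.42.0 as an alternative. The edgeR test was tested on simulated data, where the sizes of changes were recovered but many changed genes were not called, so a gene that was not called cannot be read as unchanged. Gene symbols, positions (build GRCm38) and transcripts came from GENCODE M21, promoter windows from RefSeq.

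Same-numbered libraries deviated together within each time point (correlation over genes 0.19, 0.30 and 0.17 between groups) and between Day 3 and Day 7 (0.14 to 0.22), but not between Week 4 and the earlier times (-0.14 to -0.0064). A replicate block within each time point was therefore added after seeing the data. Values were printed in every library for the members with the smallest and the largest p of each role, for 5 set members (*Mcm6*, *Mcm7*, *Cdc25a*, *E2f1*, *Pcna*) and for the 5 with the largest change over time; *Cdc45* was added after its values were seen. The members, the lists and the E2F-type words were chosen with earlier results of these data known. Intervals and totals cover counting and library spread only; the lowest member count in a library was 13.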

Additional observations from a re-analysis of the deposited data

How the results depend on the processing

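On leaving out 1 library at a time, members higher with *Sox17*-*Erg* numbered 0 to 10 on Day 3, 0 to 6 on Day 7 and 1 to 3 at Week 4 (1.25% to 6.83%, 3.85% to 8.49% and 6.5% to 11.7% of all genes over these fits), and members lower 1 to 1 on Day 7 and 1 to 2 at Week 4 (1.84% to 7.99% and 4.01% to 10.6%). From Day 3 to Week 4 in the control 4 to 29 fell (4.93% to 12.3%) and 0 to 1 rose (5.64% to 14.1%), and with *Sox17*-*Erg* 15 to 48 fell (5% to 15.1%). From Day 3 to Day 7 in the control 0 to 1 rose (0.366% to 5.47%) and 0 to 1 fell (0.198% to 3.8%), and with *Sox17*-*Erg* 0 to 2 fell (0.0248% to 1.45%).

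DESeq2 called 14 members higher on Day 3, 4 at Week 4 and 2 from Day 3 to Day 7 in the control (9.09%, 13.5% and 8.02% of all genes). It called 5 lower from Day 3 to Day 7 with *Sox17*-*Erg* (4.3%) and 3 with a lower effect at Week 4 than on Day 3 (2.35%). Without a filter on low counts 32, 11 and 8 members were higher on Day 3, on Day 7 and at Week 4 (5.91%, 6.53% and 7.98% of all genes). Of the others, 3 had a lower effect at Week 4 (1.74%), 2 and 13 fell from Day 3 to Day 7 in the control and with *Sox17*-*Erg* (4.08% and 2.88%), and 0 rose from Day 3 to Week 4 in the control (9.43%). With the 4 libraries of a time point alone 25 were higher on Day 3 and 0 on Day 7 (8.8% and 4.18% of all genes). A stricter filter gave 2 risen from Day 3 to Day 7 in the control (6.11%). At an adjusted p under 0.01, 0, 1 and 1 were higher at the 3 times (1.96%, 4.46% and 6.97% of all genes), 4 and 28 fell from Day 3 to Week 4 in the control and with *Sox17*-*Erg* (4.97% and 6.42%), and 0 rose in the control by Day 7 or Week 4 (0.845% and 6.11%). With a log2 fold change of at least 1 required, 1 was higher on Day 7 (5.02%), 0 were lower on Day 7 or at Week 4 (5.15% and 6.47%), and 0 rose in the control by Day 7 or Week 4 (2.86% and 6.82%). The causes of these differences were not tested.

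With a replicate block fitted separately per time point, 39, 22 and 13 members were higher (12.7%, 13.8% and 15.5% of all genes). At Week 4, 3 were lower (15.5%) and 11 had a lower effect than on Day 3 (2.77%). This block was not fitted for time comparisons, which would rest on 1 library a group. The replicate block over all 12 libraries, fixed earlier, gave 5, 2 and 2 higher (7.93%, 10.1% and 12.4% of all genes) and moved no count of calls by over 1.5 times. Nor did DESeq2's size factors.

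The log2 fold change turned direction for some of the members given per library. With the GC offset *Orc3* was -0.0271 on Day 3, and with the block within each time point *Pold2* was -0.0098 on Day 7 and *Pcna* 0.014 at Week 4. That block also turned *Orc6* on Day 7 (-0.0115) and *Rfc4* at Week 4 (-0.0369), which are not given per library. On leaving out 1 library, Day 3 values ran from -0.0438 to 0.10 (*Orc3*) and -0.10 to 0.14 (*Gins4*). Day 7 values ran from -0.0614 to 1.39 (*Mcm10*), -0.32 to 0.96 (*Prim1*), -0.36 to 0.26 (*Pold2*), -0.0685 to 0.86 (*Pcna*), -0.18 to 0.47 (*Rpa3*), -0.0557 to 1.74 (*Rrm2*) and -0.46 to 1.10 (*Tk1*). Week 4 values ran from -0.14 to 1.149 (*Mcm5*), -0.27 to 0.41 (*Gins3*), -0.72 to 0.16 (*Prim1*), -0.17 to 0.0434 (*Rfc1*), -0.30 to 0.35 (*Pcna*), -0.0165 to 0.33 (*Rpa3*), -0.0118 to 0.65 (*Tyms*), -0.0435 to 0.89 (*Tk1*) and -0.35 to 0.82 (*Chaf1a*). None of these was called at that time.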

Other observations

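Genes of mitosis and the spindle, a list of 25, had a median log2 fold change between the *Sox17*-*Erg* and control groups of 1.42 on Day 3, 0.72 on Day 7 and 1.74 at Week 4. By edgeR's quasi-likelihood test with Benjamini-Hochberg adjustment 0 were called on Day 3 and on Day 7 and 8 were higher at Week 4, where 11.9% of all genes were. On Day 3 and Day 7, 12 and 0 were higher at an unadjusted p under 0.05 (16.8% and 16.4% of all genes). DESeq2 called 6, 0 and 16 higher at the 3 times (9.09%, 10.8% and 13.5% of all genes). Among the 8 genes were *Kif23*, a motor of the central spindle (2.65 ± 0.78, SE, adjusted p = 0.0377), *Cenpf*, a kinetochore protein (2.49 ± 0.75, adjusted p = 0.0413), and *Bub1*, a checkpoint kinase (2.42 ± 0.72, adjusted p = 0.0399). They were named because their absolute Week 4 log2 fold changes were among the largest of the list.

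Of 13 cell cycle inhibitors edgeR called 2, 1 and 1 higher at the 3 times (7.19%, 9.48% and 11.9% of all genes) and 1, 1 and 2 lower (5.13%, 7.93% and 11%). DESeq2 called 2, 1 and 1 higher (9.09%, 10.8% and 13.5%) and 1, 2 and 2 lower (8.32%, 10.3% and 12.4%). *Rb1*, which restrains E2F, was higher with *Sox17*-*Erg* at each time (log2 fold change 0.79, 1.43 and 1.38, adjusted p = 0.0193, 0.000827 and 0.000566 by edgeR). *Rbl2*, a related pocket protein, was lower on Day 7 (-0.69, adjusted p = 0.0133) and at Week 4 (-0.56, adjusted p = 0.0245), and *Trp53* was higher on Day 3 (0.47, adjusted p = 0.0215, named after its value was seen). *Cdkn1c*, a CDK inhibitor, was lower on Day 3 (-2.68, adjusted p = 0.00305) and at Week 4 (-1.37, adjusted p = 0.0182). *Cdkn2a*, also a CDK inhibitor, rose from Day 3 to Week 4 by 3.83 ± 0.41 on the log2 scale in the control and by 4.01 ± 0.41 with *Sox17*-*Erg* (adjusted p = 0.000556 and 0.000507). Apart from *Trp53*, the genes named here were picked for the largest absolute Week 4 log2 fold changes of the list.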
